A study of Rattus norvegicus with 14 samples.

Results

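The 70 genes described here encode the machinery that brings a vesicle to a membrane and fuses it, in PCCL3 rat thyroid cells with and without the PAX8-PPARG fusion protein (PPFP). They were chosen by symbol from the 16816 genes of the count table, as all rows named synaptotagmin (Syt), synaptotagmin-like (Sytl), syntaxin (Stx), syntaxin-binding protein (Stxbp), VAMP, Rab3, SV2, synapsin (Syn) or complexin (Cplx), together with Snap23, Snap25, Snap29, Snap47, Syp, Syngr1, Unc13b, Rims1 and Rims2. Syngr2, which the rule also names, was not analysed here. PCCL3 is a continuous, differentiated rat thyroid follicular line, and all groups were grown in medium with thyrotropin, insulin, transferrin, hydrocortisone and serum. The PPFP line was transfected with the human fusion protein (3xMyc-tagged) and the EV line with the vector alone, both stably, and each line was treated with 1 μM pioglitazone, a PPARG agonist, from a stock in DMSO, or with vehicle, for 16 hours. The replicates came from independent experiments, as the methods of the study describe. RNA-seq of 3 replicates for each of the 4 groups gives 12 libraries with totals between 23724703 and 35240176 counts on genes. PPFP and EV cells are 1 transfected line each, so a difference between the lines can reflect PPFP or any other difference between them, and these cannot be told apart.

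Vesicle fusion is carried out by SNARE proteins. A VAMP on the vesicle pairs with a syntaxin and a SNAP-25 family protein on the target membrane, and the resulting bundle pulls the membranes together. Syntaxin-binding proteins chaperone or occupy syntaxins, Rab3, RIM and Munc13 proteins dock and prime vesicles, complexins hold primed SNARE bundles, and synaptotagmins are membrane proteins of which several sense the calcium that triggers release. Neurons and endocrine cells use dedicated versions of these proteins, whereas most cells use other family members for constitutive secretion, endosomal traffic and granule release. A thyroid follicular cell sends thyroglobulin, thyroperoxidase and their vesicles to its apical surface and takes thyroglobulin back by endocytosis.

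Some members were near or at 0 counts in these cells, and others, among them Rab3a, Sv2a, Syt3, Syt5, Vamp2 and Rims2, were well above that level. Of the 70 members, 9 had no count in any library (Syt4, Syt9, Syt10, Stx1a, Cplx4, Rab3b, Rab3c, Sv2b and Sv2c). Another 10 had at most 3 counts in every library, namely Syt1 (the main calcium sensor of fast synaptic release), Syt2, Syt13, Syt15, Sytl5, Snap25 (the neuronal plasma membrane SNARE), Cplx1, Rims1, Unc13b and Syp (synaptophysin, the standard synaptic vesicle marker). In the whole table, 3447 of 16816 genes had no count and 5248 had at most 3, both of which are larger shares than among the members. A count of 0 allows a level of up to 3 counts, which is between 0.0851 and 0.126 CPM (counts relative to the scaled library total) depending on the library, and this covers counting error only. In bulk RNA, fewer cells that express a gene and less RNA per cell cannot be told apart.

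**Figure D1:**
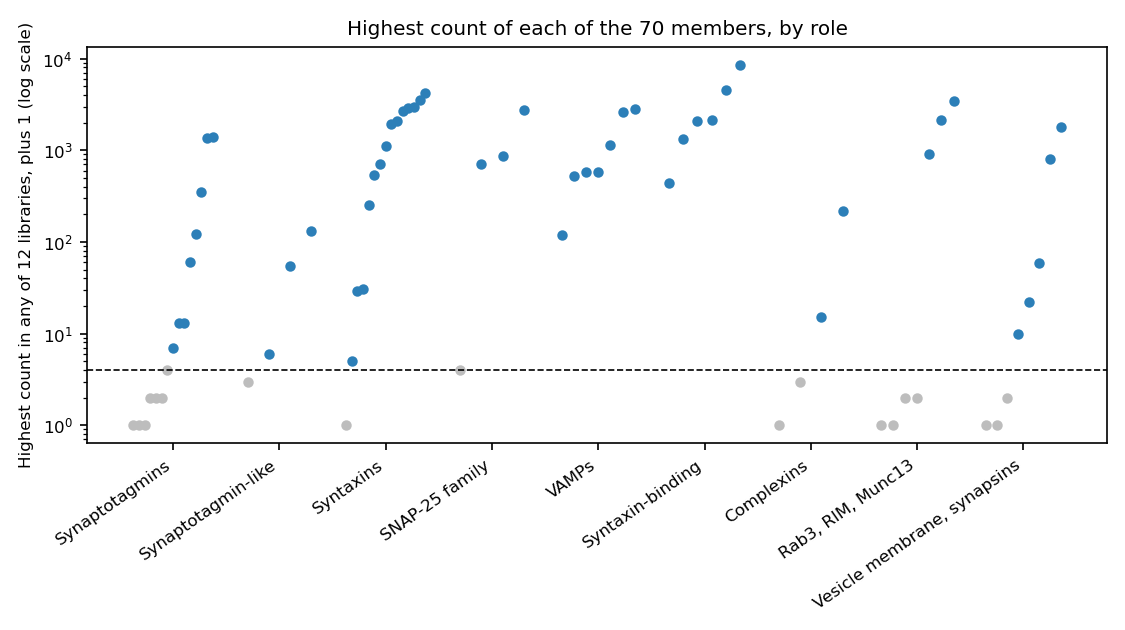
Highest count of each of the 70 members in any of the 12 libraries, plus 1, on a log axis and grouped by role. Grey points under the dashed line are the 19 members with at most 3 counts in every library, and blue points are the other members.

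A further 6 members exceeded 3 counts but were too low to be tested in any comparison (among them Syt7, Syt8, Sytl3, Cplx3 and Syn1), which left 45 members tested in at least 1 comparison and 40 whose mean was 1 CPM or more. Syn1, a phosphoprotein that tethers vesicles to actin, had between 1 and 9 counts in each library. Every member of the VAMP and Stxbp families was tested, as were 13 of 15 syntaxins and 3 of 4 SNAP-25 family genes, against 5 or 6 of 15 synaptotagmins and 1 of 4 complexins. The summed level of all members lay between 1724 and 1816 CPM in EV cells, between 1718 and 1809 CPM in EV cells with pioglitazone, between 1423 and 1533 CPM in PPFP cells, and between 1284 and 1352 CPM in PPFP cells with pioglitazone. Every PPFP library lay under all EV libraries, and those with pioglitazone lay under those without.

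The labels were checked first. Pparg had a mean of 1.61 CPM in the EV libraries and of 53.6 CPM in the PPFP libraries (n = 3 each), although these counts do not separate the rat gene from the fusion. All 12 thyrocyte markers were detected, among them Tg at means of 8814 CPM in the EV and 11716 CPM in the PPFP libraries. Of 15 C cell and neuroendocrine granule markers, 10 had at most 3 counts everywhere, with Calca, Calcb, Scg3 and Pcsk1 among those at 0, and of 17 neuron markers 12 did, with Nefl, Nefm, Elavl4 and Slc32a1 at 0. The granule genes Ptprn and Cpe and the neuronal genes Nefh and Slc18a2 were nevertheless present. The summed neuron markers ranged from 92.5 to 224 CPM in EV cells, 93.6 to 210 CPM in EV cells with pioglitazone, 95.1 to 111 CPM in PPFP cells, and 70.3 to 81.7 CPM where PPFP cells had pioglitazone, mostly through Nefh. The summed C cell and granule markers ranged from 219 to 325, 219 to 335, 158 to 217 and 156 to 249 CPM in the same order. Of 8 fibroblast markers 5 had at most 3 counts, and their sum lay between 20.4 and 34.5 CPM in all libraries. The part of these marker genes in the results that follow was not tested.

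PPFP cells were first compared with EV cells without pioglitazone. Synaptotagmins, a complexin, a syntaxin-binding protein, Rab3a and Sv2a were lower in PPFP cells, whereas the SNAREs that form the fusion complex changed by less than 2-fold. Here a gene counts as past both limits when the adjusted p (edgeR's quasi-likelihood test, Benjamini-Hochberg over all genes tested) was under 0.05 and the fold change above 2. Of the 70 members 44 were tested, and 9 of these were lower past both limits and 1 was higher. Among all 10264 genes tested, 7.31% were lower and 7.27% higher by the same limits. At an adjusted p under 0.05 with any fold change, 14 members were lower and 6 higher, beside 23.1% and 22% of all genes tested. The PPFP and EV libraries did not overlap for 56% of all genes tested, and for 17 members that were lower and 8 that were higher. The median log2 fold change of the 44 members was -0.12 and that of all genes 0.0016. A gene with low counts in PPFP cells enters such a count only through its level in EV cells, so the share among tested members is a description of this table.

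All 5 synaptotagmins tested in this comparison were lower in PPFP cells, by between 2.17-fold (Syt3) and 8.88-fold (Syt12). Syt5, a calcium-binding synaptotagmin known from dense-core granules, was at 41.1, 32.9 and 43.6 CPM in the EV libraries 1 to 3 and at 9.43, 9.32 and 9.25 CPM in the PPFP libraries. No PPFP library came near the lowest EV library. The log2 fold change was -2.05 ± 0.12 (SE, n = 3 against 3, adjusted p = 1.88e-05).

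Syt3, another calcium sensor of neurons and endocrine cells, was the synaptotagmin with the most counts over all libraries. It was at 37.3, 33.7 and 29.6 CPM in EV cells and at 14.1, 16.0 and 15.5 CPM in PPFP cells. The highest PPFP library was well under the lowest EV library (log2 fold change -1.12 ± 0.13, adjusted p = 0.000344 by edgeR). Syt17, a synaptotagmin that works without calcium in the Golgi and endosomes, went from 9.88, 7.70 and 7.78 CPM in EV cells to 0.697, 1.55 and 1.31 CPM in PPFP cells. Its log2 fold change was -2.81 ± 0.29 (edgeR adjusted p = 0.000232), and replicate 1 was the lowest of the PPFP libraries.

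Syt11, a calcium-independent synaptotagmin linked to vesicle endocytosis, was at 3.52, 3.48 and 3.43 CPM in EV cells and at 0.624, 1.07 and 0.844 CPM in PPFP cells. The EV libraries hardly differed from each other, and all 3 PPFP libraries were under them (log2 fold change -2.01 ± 0.23, adjusted p = 0.000413 by edgeR). Syt12, which binds no calcium and is phosphorylated in synaptic vesicles, had a mean under 1 CPM over the libraries. It had 14 to 50 counts in the EV libraries and 2 to 4 in the PPFP libraries. The EV libraries themselves spread over more than a factor of 3, with replicate 3 the lowest at 0.48 CPM, and the standard error of the log2 fold change was accordingly large (-3.15 ± 0.63, edgeR adjusted p = 0.00496).

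The synaptotagmin-like proteins, which bind Rab27 on secretory granules, did not share a direction. Sytl4 (granuphilin), which docks granules at the plasma membrane, was the 1 member that rose past both limits. Its level was 2.28, 1.84 and 1.47 CPM in EV cells and 3.82, 4.88 and 4.90 CPM in PPFP cells, with no overlap (log2 fold change 1.30 ± 0.23, adjusted p = 0.00274 by edgeR). Sytl1, a related Rab27 effector, was at 1.81, 1.47 and 0.925 CPM in EV cells and at 0.624, 1.26 and 1.06 CPM in PPFP cells, and these ranges overlapped (log2 fold change -0.50 ± 0.36, adjusted p = 0.295).

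**Figure D2:**
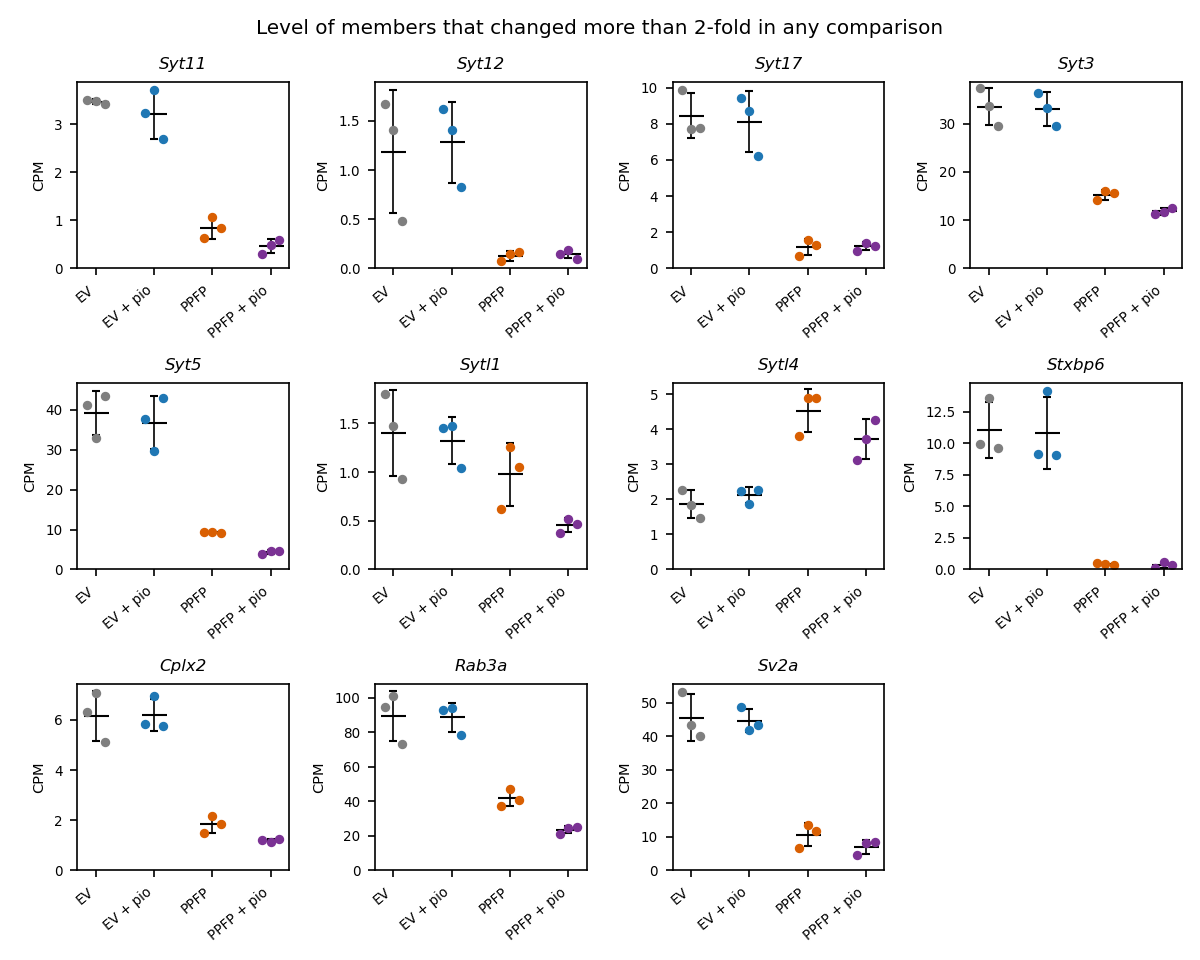
Level in CPM of 11 members that passed both limits in any comparison without a replicate block, each on its own linear axis from 0, with 1 point per library (3 per group), the group mean as a dash and its SD as a bar. Apart from Sytl4, which is higher in both PPFP groups, and Sytl1, which overlaps without pioglitazone, the PPFP libraries lie under the EV libraries.

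Among the SNAREs themselves, none of 13 syntaxins, 3 SNAP-25 family genes and 7 VAMPs passed both limits. At an adjusted p under 0.05, Stx4, Stx5 and Stx8 were lower and Stx17, Snap29 and Vamp8 higher. Stx4, a plasma membrane syntaxin used in regulated secretion outside neurons, fell from a mean of 59.2 ± 2.57 to 45.1 ± 3.15 CPM (SD over the 3 libraries), which on the log2 scale is -0.37 ± 0.09 (edgeR adjusted p = 0.0136). Snap29, a SNAP-25 relative of endosomes and autophagosomes, rose from 66.9 ± 5.76 to 97.8 ± 3.26 CPM (0.57 ± 0.09, edgeR adjusted p = 0.00191). Vamp8, the endosomal VAMP that also serves granule release in exocrine glands, rose from 13.7 ± 0.719 to 19.5 ± 0.400 CPM (0.52 ± 0.09, edgeR adjusted p = 0.00315). All 6 of these changes were under 1.5-fold. The calls of Snap29 and Vamp8 held under all alternatives run, whereas the highest adjusted p over the alternatives was 0.0622 for Stx4, 0.14 for Stx5, 0.15 for Stx8 and 0.0836 for Stx17.

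Other widely expressed SNAREs showed small differences that did not pass the test. Stx12, the syntaxin with the most counts and a recycling endosome protein, was at 117 ± 5.84 CPM in EV and 108 ± 7.16 CPM in PPFP cells (adjusted p = 0.368 by edgeR). The apical syntaxin Stx3 was at 6.96 ± 0.920 and 5.68 ± 0.188 CPM, and Snap23, the SNAP-25 homologue of non-neuronal cells, at 18.6 ± 1.36 and 19.3 ± 1.25 CPM. Vamp2, the synaptic vesicle VAMP that many other cells also use, was at 72.5 ± 3.42 and 70.5 ± 4.08 CPM. For Vamp3, its counterpart in recycling endosomes, the means were 77.4 ± 11.7 and 63.3 ± 5.99 CPM, and for Vamp7, a VAMP of late endosomes and lysosomes, 29.3 ± 1.19 and 33.3 ± 0.982 CPM. The log2 fold changes of these 6 genes lay between -0.27 and 0.21.

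The syntaxin-binding genes held the largest decrease of any tested member. Stxbp6 (amisyn), which has a VAMP-like SNARE motif and occupies syntaxin in place of VAMP, was at 9.98, 13.6 and 9.63 CPM in EV cells and at 0.477, 0.444 and 0.338 CPM in PPFP cells. These are 281 to 406 counts against 8 to 13, a 25.6-fold decrease (log2 fold change -4.68 ± 0.25, adjusted p = 1.15e-05 by edgeR). Stxbp4 (Synip), which binds Stx4, fell by 0.32 on the log2 scale (SE 0.09, edgeR adjusted p = 0.0226, and up to 0.0967 over the alternatives). Stxbp2 and Stxbp3 did not pass the test: Stxbp2, used by granulocytes and epithelia, was at 123 ± 10.1 and 112 ± 6.29 CPM, and Stxbp3, the partner of Stx4, at 55.5 ± 6.07 and 63.5 ± 2.57 CPM.

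Cplx2, the complexin that is also found outside the nervous system, was the 1 complexin with enough counts to test. It was at 6.33, 7.06 and 5.10 CPM in EV cells and at 1.5, 2.18 and 1.86 CPM in PPFP cells, and the groups were well apart (log2 fold change -1.72 ± 0.22, edgeR adjusted p = 0.000643).

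Of the docking and priming genes, Rab3a and Rims2 changed and Rab3d did not pass the test. Rab3a, the main Rab GTPase of synaptic vesicles and many secretory granules, was at 94.7, 101 and 73.2 CPM in EV cells and at 37.5, 47.1 and 41.0 CPM in PPFP cells (log2 fold change -1.08 ± 0.15, edgeR adjusted p = 0.00098). The groups did not overlap, but the change was close to the 2-fold limit, and it was -0.98 both without PPFP replicate 1 and without EV replicate 2. Rims2, a Rab3 effector at release sites, rose from 22.9 ± 2.36 to 30.3 ± 0.532 CPM (0.42 ± 0.11, edgeR adjusted p = 0.0164). Rab3d, the Rab3 of exocrine granules, was at 56.9 ± 7.73 CPM in EV and 60.0 ± 2.0 CPM in PPFP cells.

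Sv2a, a transporter-like glycoprotein of synaptic vesicles and endocrine granules, was the vesicle membrane gene with the most counts. Its level was 53.3, 43.4 and 40.02 CPM in EV cells and 6.71, 13.5 and 11.9 CPM in PPFP cells, and the highest PPFP library was far under the lowest EV library (log2 fold change -2.07 ± 0.26, edgeR adjusted p = 0.000544). PPFP replicate 1 had the lowest level. The same library was also the lowest of its group for Vamp1 (8.81 against 21.3 and 19.4 CPM), Stx16 (47 against 74.9 and 68.9 CPM) and Stxbp5 (21.2 against 36.1 and 30.8 CPM), none of which passed the test between the cell lines. Syngr1, a synaptogyrin of small vesicles, rose by 0.32 ± 0.09 (log2, edgeR adjusted p = 0.0227, and up to 0.0814 over the alternatives).

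Filtering kept some very low members out of the test. With no filter, Syt6, Syt7 and Syt8 would also have passed both limits. Syt7, a calcium sensor of lysosome and granule exocytosis, had 3 to 5 counts in each EV library and none in the PPFP libraries, and Syt8 had none in the EV libraries and 2 to 7 in the PPFP libraries. These levels are near the limit that a count of 0 allows, so no fold change is given for them. Without PPFP replicate 1, Syt6 passed the filter and both limits, which made 2 members higher in place of 1.

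The comparison was then made with both lines cultured with pioglitazone, which uses another 6 libraries. Of 43 members tested, 11 were lower past both limits and none was higher, where 10.4% of the 10291 genes tested were lower and 9.3% higher. At an adjusted p under 0.05 with any fold change, 19 members were lower and 3 (Sytl4, Snap29 and Rims2) higher, beside 26.4% and 26.3% of all genes. The median log2 fold change of the members was -0.29 and that of all genes 0.012. Libraries of the 2 lines did not overlap for 62.9% of all genes tested, and for 22 members that were lower and 5 that were higher. PPFP libraries 2 and 3 with pioglitazone resembled each other more than any other pair of one group (chi-square per degree of freedom of 1.70, against 17.8 to 113 for the other pairs), which is still more than sampling noise, and they were kept as separate replicates. The count of members past both limits was 11 without either of them. Without PPFP replicate 1 with pioglitazone, 10 members were lower and 2 higher, the latter being Syt6 and Syn2. The filter on low counts kept both out of the test of the 6 libraries, and they are named after their values were seen. With no filter, Syn2 and Syt8 would also have passed both limits as higher and Syt7 as lower, all at low counts.

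The same 5 synaptotagmins were again all lower. Syt5 was at 37.6, 29.8 and 43.0 CPM in EV cells with pioglitazone and at 3.82, 4.55 and 4.70 CPM in PPFP cells with pioglitazone (log2 fold change -3.05 ± 0.17, adjusted p = 1.61e-05 by edgeR). Syt3 was at 36.3, 33.2 and 29.5 CPM against 11.3, 11.6 and 12.6 CPM (-1.45 ± 0.12, edgeR adjusted p = 6.69e-05). For both genes the 3 PPFP libraries lay close together and far from the EV libraries. Syt11 was at 3.24, 3.71 and 2.69 CPM against 0.302, 0.485 and 0.596 CPM, and Syt17 at 9.42, 8.70 and 6.21 CPM against 0.983, 1.42 and 1.26 CPM. Their log2 fold changes were -2.75 ± 0.28 (edgeR adjusted p = 0.000204) and -2.70 ± 0.24 (edgeR adjusted p = 0.000103). Syt12 had 23 to 60 counts against 3 to 5, a log2 fold change of -3.11 ± 0.41.

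Sytl1 passed both limits here but not without pioglitazone. It was at 1.46, 1.47 and 1.04 CPM in EV cells with pioglitazone and at 0.378, 0.522 and 0.464 CPM in PPFP cells with pioglitazone, a separation that was absent without the drug (log2 fold change -1.51 ± 0.27, edgeR adjusted p = 0.00269). The test of whether its difference between the lines itself differed with pioglitazone gave -1.02 ± 0.47 (edgeR adjusted p = 0.385). With the replicate within each line as a block, this test gave -1.02 ± 0.32 (edgeR adjusted p = 0.0244). That was the only alternative run in which Sytl1 passed both limits there.

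Stxbp6 was at 9.18, 14.1 and 9.12 CPM in EV cells with pioglitazone and at 0.151, 0.560 and 0.331 CPM in PPFP cells with pioglitazone (log2 fold change -4.91 ± 0.39, edgeR adjusted p = 6.23e-05). Cplx2 was at 5.86, 6.94 and 5.78 CPM against 1.21, 1.12 and 1.26 CPM (-2.34 ± 0.17, edgeR adjusted p = 4.3e-05). All PPFP libraries of both genes lay under the EV libraries. Rab3a was at 92.9, 94.2 and 78.7 CPM against 21.2, 24.4 and 25.1 CPM (-1.88 ± 0.12, edgeR adjusted p = 2.18e-05), and Sv2a at 48.6, 42.0 and 43.5 CPM against 4.57, 8.09 and 8.45 CPM (-2.63 ± 0.23, edgeR adjusted p = 9.76e-05). Both were further from the 2-fold limit than without pioglitazone. Sytl4 was at 2.24, 1.85 and 2.26 CPM against 3.14, 3.73 and 4.27 CPM, still higher in every PPFP library but by less than 2-fold (0.84 ± 0.19, edgeR adjusted p = 0.00875).

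Smaller decreases with pioglitazone were seen for Stx2, Stx4, Stx5, Stx6, Stx8, Stxbp4, Vamp2 and Rab3d, with log2 fold changes between -0.47 and -0.22. Of these, Stx4, Stx5 and Stxbp4 passed the test under all alternatives run, whereas the highest adjusted p over the alternatives was 0.0656 for Stx2, 0.058 for Stx6, 0.121 for Stx8, 0.157 for Vamp2 and 0.0963 for Rab3d. Snap29 (0.46 ± 0.07, edgeR adjusted p = 0.000931) and Rims2 (0.44 ± 0.09, edgeR adjusted p = 0.00588) were higher. For Vamp8 the log2 fold change was 0.18 ± 0.10 and for Stx17 0.18 ± 0.12, and neither passed the test.

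**Figure D3:**
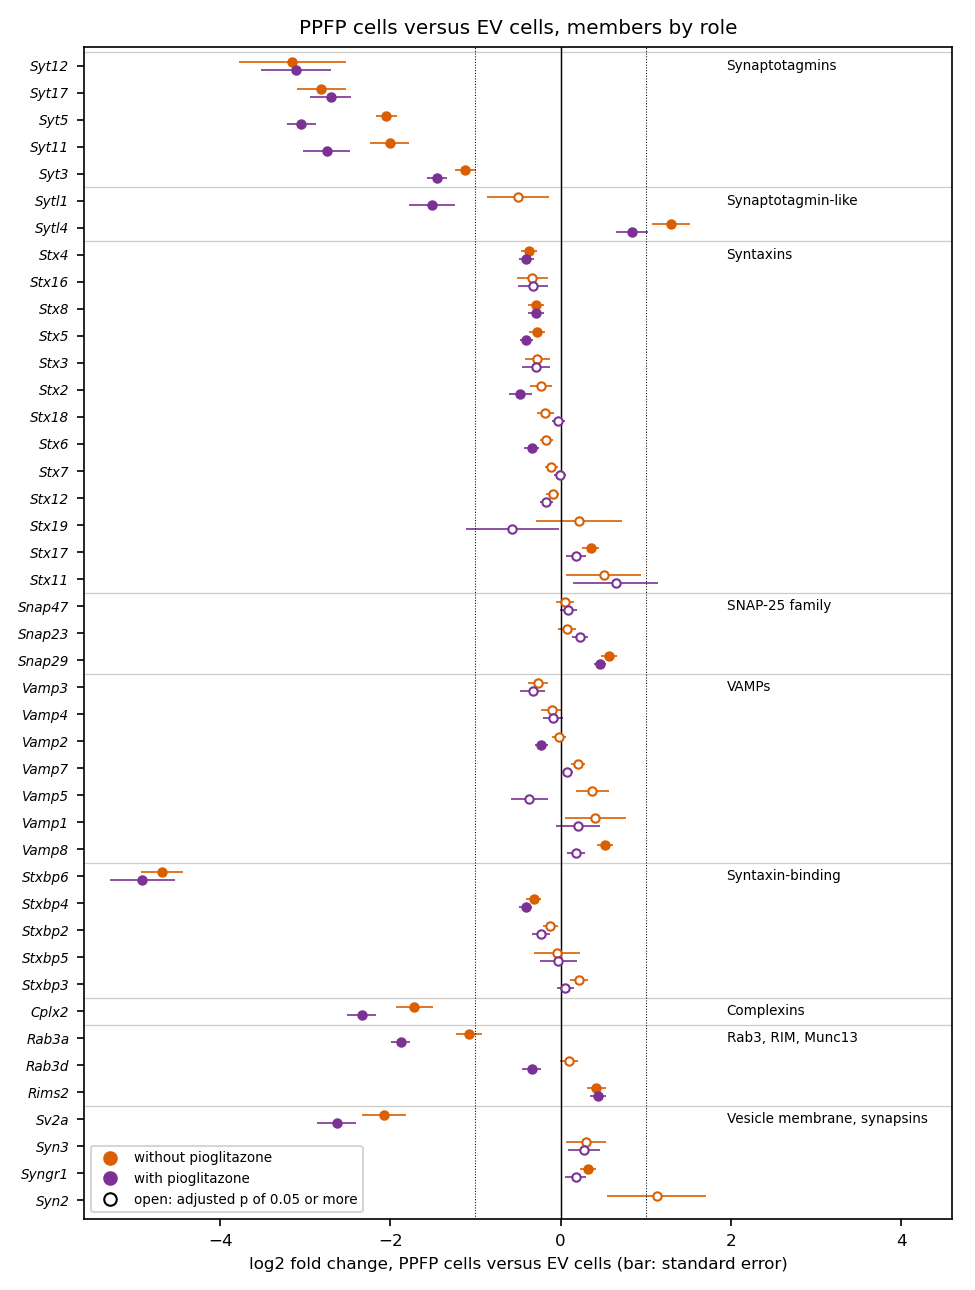
Log2 fold change of PPFP versus EV cells for 43 of the members tested without pioglitazone, by role, with the standard error as a bar; orange points are without and purple points with pioglitazone, and open points did not pass the test. The synaptotagmins, Stxbp6, Cplx2, Rab3a and Sv2a lie to the left of the dotted 2-fold line, and the syntaxins, SNAP-25 family and VAMPs lie between the dotted lines.

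Promoter sequences were looked up for the members, from 250 bases before to 50 bases after the start of the gene in RefSeq (GRCr8). Of the 70 members 56 had an entry, as did 7 of the 11 that were lower past both limits in either comparison of the lines. Syt5, Syt12 and Syt17 are named only. The promoters of 4 members that were lower in both comparisons and that have different roles are shown (a calcium sensor, a syntaxin-binding protein, a Rab GTPase and a vesicle membrane protein), since they let a reader compare the DNA at genes that differ together. Capitals mark every match, on either strand, to GGGCGG (a GC box) or TGACGT (one arm of a cyclic AMP response element), and Stxbp6 and Sv2a have no match. Syt3 is on the plus strand at chr1:104017874-104018173, Stxbp6 on the minus strand at chr6:67884289-67884588, Rab3a on the minus strand at chr16:18722224-18722523 and Sv2a on the plus strand at chr2:186430113-186430412.
Syt3: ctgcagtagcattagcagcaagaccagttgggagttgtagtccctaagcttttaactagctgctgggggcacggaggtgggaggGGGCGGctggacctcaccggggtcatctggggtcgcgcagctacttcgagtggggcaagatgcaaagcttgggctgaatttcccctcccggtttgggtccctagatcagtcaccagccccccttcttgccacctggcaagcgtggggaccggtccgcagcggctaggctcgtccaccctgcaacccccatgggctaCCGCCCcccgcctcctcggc
Stxbp6: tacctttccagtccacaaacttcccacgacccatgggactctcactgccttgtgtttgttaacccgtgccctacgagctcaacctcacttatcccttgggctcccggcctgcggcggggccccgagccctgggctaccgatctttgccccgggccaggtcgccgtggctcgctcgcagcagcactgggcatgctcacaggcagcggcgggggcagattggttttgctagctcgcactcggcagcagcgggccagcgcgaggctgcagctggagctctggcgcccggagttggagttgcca
Rab3a: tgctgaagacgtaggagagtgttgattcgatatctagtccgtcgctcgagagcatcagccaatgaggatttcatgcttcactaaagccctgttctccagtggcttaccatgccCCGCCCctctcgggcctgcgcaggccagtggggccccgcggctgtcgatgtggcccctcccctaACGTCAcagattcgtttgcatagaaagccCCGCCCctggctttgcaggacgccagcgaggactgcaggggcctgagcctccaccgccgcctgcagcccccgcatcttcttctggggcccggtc
Sv2a: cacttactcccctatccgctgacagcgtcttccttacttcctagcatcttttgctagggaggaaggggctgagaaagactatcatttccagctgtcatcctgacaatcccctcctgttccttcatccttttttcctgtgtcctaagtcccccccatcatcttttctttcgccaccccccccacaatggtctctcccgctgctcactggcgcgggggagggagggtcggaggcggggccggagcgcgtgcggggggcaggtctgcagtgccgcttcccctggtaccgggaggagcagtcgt

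The letters GGGCGG were found in 4 of the 7 promoters of members that were lower and in 36 of the 56 members with an entry (64.3%). Over all 33469 promoters of this length the share was 33.1%. Each member was searched by its first entry only, whereas the shares over all promoters count every entry. TGACGT was found in 1 of the 7 (Rab3a), in 12.5% of the members and in 7.94% of all promoters. AGGTCA, the core letters bound by nuclear receptors such as PPARG, was found in none of the 7, in 10.7% of the members and in 16.2% of all promoters, and 2 such cores in a row with 1 base between them in none of the members and in 0.0538% of all. CAGCACC and GGACAG, the 2 core parts of the element bound by the neuronal gene repressor REST, were in none of the 7, in 14.3% and 19.6% of the members and in 6.78% and 21.7% of all promoters. A match to these letters is not evidence of a binding site, and a missing match says only that the letters are not in this window.

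Few members changed with pioglitazone in PPFP cells by the pairwise test, and all that did were lower. This comparison shares the PPFP libraries without pioglitazone with the first comparison of the lines, so its values are set beside those and not combined with them. Of 44 members tested, 1 (Syt5) was lower past both limits and none higher, where 1.31% of the 10064 genes tested were lower and 1.11% higher. At an adjusted p under 0.05 with any fold change, 5 members were lower (Syt5, Rab3a, Rab3d and Vamp8 among them) and none higher, beside 7.13% of all genes lower and 7.63% higher. The median log2 fold change of the members was -0.14 and that of all genes 0.012. Libraries with and without the drug did not overlap for 34.1% of all genes tested, and for 17 members that were lower and 0 that were higher. Syt5 was past both limits without either of the 2 PPFP libraries that resembled each other.

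Syt5 fell from 9.43, 9.32 and 9.25 CPM to 3.82, 4.55 and 4.70 CPM (log2 fold change -1.09 ± 0.12, edgeR adjusted p = 0.00252). Rab3a fell from 37.5, 47.1 and 41.0 CPM to 21.2, 24.4 and 25.1 CPM (-0.82 ± 0.12, edgeR adjusted p = 0.00618). Both genes were already lower in PPFP than in EV cells without the drug, and their libraries with pioglitazone were the lowest of the 12.

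Rab3d, which had not passed the test between the lines without pioglitazone, was at 59.6, 58.2 and 62.1 CPM without and 41.0, 40.9 and 43.6 CPM with the drug, 2 tight groups with no overlap (-0.52 ± 0.06, edgeR adjusted p = 0.00395). Vamp8 went from 19.4, 19.1 and 19.9 CPM to 17.0, 15.7 and 14.4 CPM (-0.31 ± 0.08, edgeR adjusted p = 0.0456, and up to 0.189 over the alternatives), which is towards its mean of 13.7 CPM in EV cells. Unlike Syt5 and Rab3a, it was higher in PPFP than in EV cells without pioglitazone.

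Within each cell line the libraries of the same replicate number deviated together, so the response was also fitted with the replicate number as a block. The block raised the members past both limits to 3, all lower (Syt5, Sytl1 and Stx19), beside 1.84% of all genes lower. The members with an adjusted p under 0.05 rose to 20, of which 19 were lower and 1 (Stx18) higher, beside 23.9% of all genes lower and 27.7% higher. Sv2a (-0.60 ± 0.09, edgeR adjusted p = 7.53e-06 with the block), Vamp5 (-0.62 ± 0.13, 0.000389), Vamp2 (-0.23 ± 0.04, 0.000118), Syt3 (-0.36 ± 0.07, 0.000288) and Stxbp2 (-0.17 ± 0.04, 0.000895) were among those added. Cplx2 (-0.62 ± 0.20, edgeR adjusted p = 0.0104 with the block) and Syt11 (-0.86 ± 0.29, 0.0170) were added as well, whereas Syt17 (0.05 ± 0.22), Stxbp6 (-0.27 ± 0.40) and Sytl4 (-0.28 ± 0.12, adjusted p = 0.0526) did not pass the test. Stx19, a syntaxin of epithelia, had a mean of 0.700 CPM without and 0.324 CPM with the drug, and its libraries without the drug ranged from 0.220 to 1.04 CPM. Its fold change passed both limits only in the fit with the block.

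In EV cells none of 43 members passed the test (edgeR, adjusted p under 0.05), and none had an unadjusted p under 0.05. Of all 10146 genes, only 16 had an unadjusted p under 0.05 by edgeR without the block. The 0 among the members therefore says little about whether they responded. DESeq2 and edgeR's exact test also gave 0 members at an adjusted p under 0.05. With the block 0 passed and 2 had an unadjusted p under 0.05. Among all 10146 genes, 0% passed. The log2 fold changes of the members lay between -0.31 and 0.18 with a median of -0.02. In EV cells, Syt5 had means of 39.2 ± 5.60 CPM without and 36.8 ± 6.62 CPM with pioglitazone. For Rab3a the means were 89.6 ± 14.5 and 88.6 ± 8.61 CPM. Both differences were smaller than the spread between libraries, but same-numbered libraries share part of that spread. Syt5 was lower with the drug in each same-numbered pair, and its log2 fold change with the block was -0.10 ± 0.04 (edgeR adjusted p = 0.809). For Rab3a it was -0.01 ± 0.04 with the block.

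**Figure D4:**
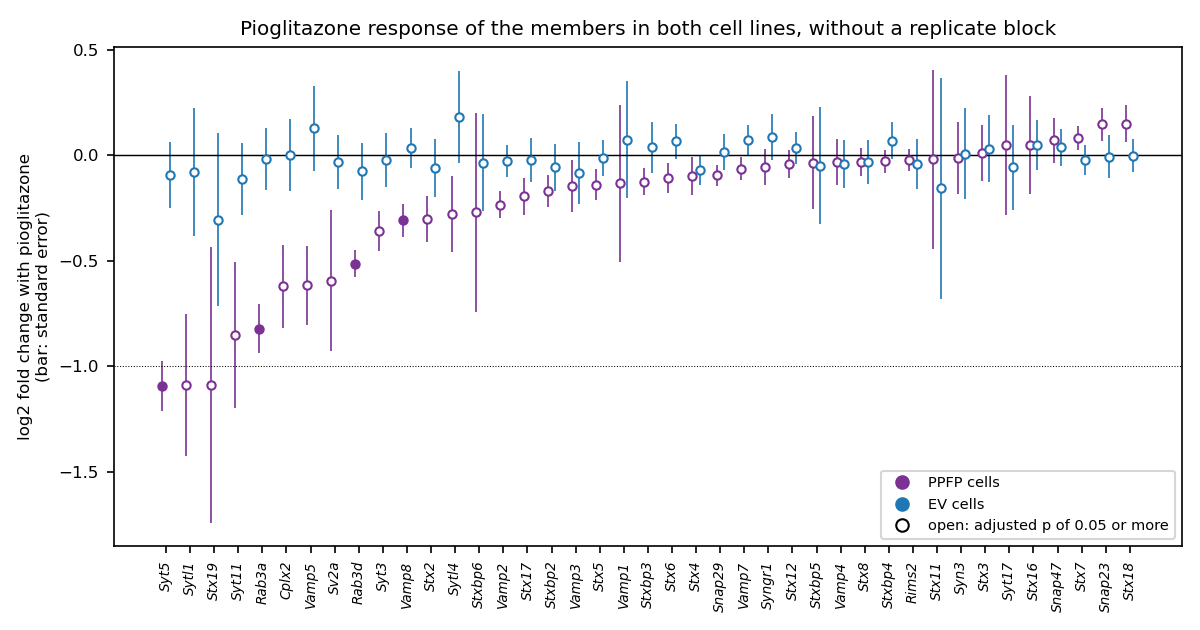
Log2 fold change with versus without pioglitazone for 41 of the members tested in both lines, sorted by the response of PPFP cells, with standard errors as bars; purple is PPFP cells, blue is EV cells, and open points did not pass the test without a replicate block. The EV points stay near 0, and the leftmost PPFP points reach about the dotted line of a 2-fold decrease.

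The difference between the 2 responses was tested as an interaction over all 12 libraries. Of 45 members tested, 1 (Syt5) responded differently, with a log2 response in PPFP cells that was lower by 1.01 than that in EV cells (-1.01 ± 0.20, edgeR adjusted p = 0.0228), beside 0.487% of all genes lower past both limits and 1.26% lower at any fold. Over the alternatives the adjusted p of this difference ranged from 5.86e-06 to 0.0817. It was no longer past both limits when any 1 of 7 of the 12 libraries was left out. These were EV replicate 2, EV replicates 1 and 3 with pioglitazone, PPFP replicates 2 and 3, and PPFP replicates 1 and 2 with pioglitazone, with differences between -1.04 and -0.90 and adjusted p values between 0.041 and 0.0817 by edgeR. For Rab3a the difference was -0.82 ± 0.20 (edgeR adjusted p = 0.0591).

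With the replicate within each line as a block, 2 members passed both limits, Syt5 (-1.01 ± 0.10, edgeR adjusted p = 5.86e-06) and Sytl1 (-1.02 ± 0.32, 0.0244), beside 1.59% of all genes lower. Of the 18 alternatives run, this was the 1 in which Sytl1 passed both limits. At an adjusted p under 0.05 there were 14 members, all lower in their response in PPFP than in EV cells, beside 17.1% of all genes lower. Among these were Syt3, Syt5, Sytl1, Stx2, Stx6, Vamp2, Vamp5, Vamp8, Stxbp3, Cplx2, Rab3a, Rab3d and Sv2a. Beside Syt5, small adjusted p values were found for Rab3a (-0.82 ± 0.07, edgeR adjusted p = 1.85e-06 with the block) and Rab3d (-0.45 ± 0.05, 1.74e-05).

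Genes of the same process outside the 70 members were counted in 4 lists, against the shares over all genes without pioglitazone of 22% higher and 23.1% lower at an adjusted p under 0.05, and of 7.27% and 7.31% past 2-fold as well. Of 17 tested genes for SNARE recycling and for SNAREs of other traffic steps, 5 were higher and 1 lower without pioglitazone at an adjusted p under 0.05, and none was past 2-fold. Nsf, the ATPase that takes spent SNARE bundles apart, had means of 93.7 ± 6.90 CPM in EV and 91.8 ± 12.2 CPM in PPFP cells. Of 8 exocyst subunits, which tether vesicles at the plasma membrane, 1 was higher (Exoc3) and 1 lower (Exoc6), and none past 2-fold. Of 18 subunits of the V-ATPase, which acidifies vesicles, 1 was higher and 5 were lower, again none past 2-fold.

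Among 26 tested genes of a list of other release and vesicle cycle genes, 8 were higher and 7 lower without pioglitazone, of which 2 and 3 were past 2-fold, where the shares over all genes are those given for the other lists. Unc13c (Munc13-3, a priming factor) had means of 0.393 ± 0.0805 CPM in EV and 16.5 ± 0.278 CPM in PPFP cells (log2 fold change 5.39 ± 0.18, edgeR adjusted p = 3.08e-06). Unc13d, the priming factor of cytotoxic and mast cell granules, rose from 2.17 ± 0.524 to 6.25 ± 0.827 CPM (1.55 ± 0.23, edgeR adjusted p = 0.00135). Dnm1, the neuronal dynamin that pinches off endocytic vesicles, fell from 24.9 ± 4.58 to 3.35 ± 0.528 CPM (-2.87 ± 0.20, edgeR adjusted p = 3.81e-05), and Bsn (Bassoon, a scaffold of presynaptic release sites) from 1.59 ± 0.562 to 0.228 ± 0.0638 CPM (-2.75 ± 0.42, edgeR adjusted p = 0.00137). The Munc13 gene Unc13a of the same list did not pass the test, with 15.6 ± 1.30 CPM in EV and 12.2 ± 2.64 CPM in PPFP cells (-0.33 ± 0.18, edgeR adjusted p = 0.167). Synj2, a lipid phosphatase that acts in vesicle uncoating, fell from 171 ± 25.2 to 66.8 ± 6.21 CPM between the lines (-1.34 ± 0.14, edgeR adjusted p = 0.000248). It fell further, to 33.7 ± 2.69 CPM, when PPFP cells were cultured with pioglitazone (response -0.99 ± 0.10, edgeR adjusted p = 0.00205). Its response differed from that of EV cells by -0.98 ± 0.19 (edgeR adjusted p = 0.0191).

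In the granule and neuron markers that were present, Cpe fell between the lines without pioglitazone (-0.65 ± 0.11, edgeR adjusted p = 0.00196), while Nefh (-0.53 ± 0.28, adjusted p = 0.166 by edgeR) and Ptprn (-0.49 ± 0.22, 0.111) did not pass the test. With pioglitazone Nefh was lower in PPFP than in EV cells (-0.93 ± 0.28, edgeR adjusted p = 0.0284), as was Slc18a2 at 6.33 ± 1.54 against 10.1 ± 1.87 CPM (-0.65 ± 0.22, edgeR adjusted p = 0.0401). Nefh also fell in PPFP cells with the drug (-0.48 ± 0.07, edgeR adjusted p = 0.00835), while Slc18a2 did not pass the test there (-0.11 ± 0.19, 0.763). Their part in the decreases of the members was not tested.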

How the data were processed

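The authors aligned the paired-end RNA-seq reads to the rat genome (rn4) with TopHat2 2.0.11 and counted reads per gene with HTSeq 0.6.1p1 in the intersection-strict mode, per the labels and the study's methods. The deposited table holds raw, unnormalized counts for 16816 gene symbols in 12 libraries, with no replicates pooled. The peak lists in rn4 were not used here, since no gene annotation of that build was at hand.

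The analysis used edgeR 4.0.16 in R 4.3.3. For each comparison the libraries of the groups compared were filtered with filterByExpr (minimum count 10), scaled by TMM and tested with the quasi-likelihood test and Benjamini-Hochberg adjustment over all genes. A gene was past both limits with an adjusted p under 0.05 and a change of over 2-fold. Standard errors are the log2 fold change over the square root of F, and CPM used TMM factors over the 12 libraries. The difference in response was an interaction term over the 4 groups. Gene lengths were not used, so levels are not compared between genes. Totals per library ranged from 23724703 to 35240176 counts. Whether counting used strand is not given in the sources used here, so reads of overlapping or antisense genes cannot be told apart.

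Named members were those past both limits in any comparison, a list of neuronal and widely expressed release genes, and the member with the most counts of each role; those past both limits with a mean of at least 1 CPM are given by library. Some named genes are not reported here, although counts over all members include them. The members and gene lists were chosen with earlier results of these data known.

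Replicate numbers come from the labels. Libraries with the same number deviated together within each line (correlation of deviations across genes 0.882, 0.698 and 0.652 in PPFP cells and 0.703, 0.865 and 0.905 in EV cells), so responses are also given with the replicate as a block. In PPFP cells replicates 2 and 3 also deviated together across numbers (0.6 and 0.742), so there the numbers set apart replicate 1 but not these. Alternatives were edgeR's exact test, DESeq2 1.42.0, RLE size factors, library size alone, 2 other filters, 1 fit of all 12 libraries, the replicate block, each library left out, and a 1.5-fold limit. The procedure was checked on simulated counts. Promoter sequences are from RefSeq (GRCr8) and were searched in Python 3.11.15, and figures were drawn with matplotlib 3.10.9.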

Additional observations from a re-analysis of the deposited data

Results flagged for a closer look

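Syt5 was the 1 member whose response to pioglitazone differed between the cell lines by the test of the difference itself without a replicate block. With the block 2 members passed both limits, Syt5 and Sytl1, and 14 had an adjusted p under 0.05. The response in PPFP cells minus that in EV cells was -1.01 on the log2 scale (SE 0.20, edgeR adjusted p = 0.0228), with means of 9.33 and 4.36 CPM without and with the drug in PPFP cells and of 39.2 and 36.8 CPM in EV cells. All 3 PPFP libraries with pioglitazone were under the 3 without it, whereas the EV groups overlapped. Its dependence on single libraries is given with the result.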

How the results depend on the processing

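Between the lines, the count of members past both limits stayed within 1.5 times its value under all alternatives run, at 9 to 10 without and 10 to 12 with pioglitazone when 1 library was left out. Those higher went from 1 to 2 without PPFP replicate 1, and from 0 to 2 in the comparison with pioglitazone without its PPFP replicate 1. The members with an adjusted p under 0.05 numbered 20 without pioglitazone and fell to 15 with the replicate block or without PPFP replicate 2 or 3. With pioglitazone they numbered 22, and 18 with the block. No member past both limits changed direction. Rab3a dropped under 2-fold without pioglitazone when some libraries were left out, as given with its values. Scaling by library size alone moved the median log2 fold change of all genes to -0.08 without and -0.12 with pioglitazone.

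In PPFP cells, the members past both limits in the pioglitazone response numbered 1, and 2 with edgeR's exact test, 3 with the replicate block, 2 with a limit of 1.5-fold and 1 to 2 with 1 library left out (2 without PPFP replicate 1). The median log2 fold change of the members was -0.14, and it ranged from -0.21 (without PPFP replicate 1) to -0.090 (without PPFP replicate 1 with pioglitazone) with 1 library left out. The members with an adjusted p under 0.05 numbered 5, and 8 with DESeq2, 20 with the block and 3 to 9 with 1 library left out. In the difference of responses, the members past both limits numbered 1, and 2 with the replicate block and 0 to 1 with 1 library left out. The cause of these shifts was not tested.

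Between the lines same-numbered libraries did not deviate together (correlations -0.288, 0.46 and -0.438 without and -0.273, 0.362 and -0.516 with pioglitazone), and the replicate block left 10 and 11 members past both limits. The count of members near PPFP peaks, with its alternatives, was not run. Depth limits the members at 0 to 3 counts, and at least 10 counts in every library removes genes that fell, leaving 8 members past both limits in either comparison of the lines.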

Other observations

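Stx17, Snap29 and Vamp8, known together as the SNAREs that fuse autophagosomes with lysosomes, were all higher in PPFP than in EV cells without pioglitazone, at log2 fold changes of 0.36 ± 0.10, 0.57 ± 0.09 and 0.52 ± 0.09 (SE, edgeR adjusted p = 0.021, 0.00191 and 0.00315). Over the alternatives the adjusted p of Stx17 reached 0.0836. With pioglitazone Snap29 alone passed the test (0.46 ± 0.07, edgeR adjusted p = 0.000931). This group of genes was picked out after its values were seen.

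Within the Rab3 family, Rab3a was lower in PPFP than in EV cells without pioglitazone and fell further with it, while Rab3d differed between the lines by -0.34 on the log2 scale with the drug (edgeR adjusted p = 0.036, and 0.0614 with the replicate block) and did not pass the test without it. In EV cells neither gene changed by the test, with means of 89.6 and 88.6 CPM for Rab3a and of 56.9 and 54.1 CPM for Rab3d.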
